A study of Rattus norvegicus with 9 samples.

Results

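Levels of 5 serum miRNAs, miR-200a-3p, miR-203a-3p, miR-205, miR-182 and miR-183-5p, were followed in the rotenone rat model of Parkinson's disease. They were taken by name from the 567 miRNAs of the deposited count matrix, and all 5 had counts in every library. The choice of the 5 was made with earlier results of these data known. The groups were LPD, male wild-type Wistar rats given rotenone at 2 mg per kg per day intraperitoneally for more than 40 days, to a terminal stage, EPD, given the same daily dose for 10 days, and Control. Rotenone blocks mitochondrial complex I. Each group had 3 serum libraries. The treatment label and the protocol read alike for all 9 libraries, and do not say whether the Control rats got a vehicle or nothing. The sources do not say whether 1 library is 1 animal.

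miRNAs are short RNAs that pair through their seed, bases 2 to 8, with messenger RNAs and lower their translation and stability. The miR-200 family, to which miR-200a belongs, holds epithelial cells in their state by repressing the transcription factors Zeb1 and Zeb2, and miR-205 of stratified epithelia represses the same pair. miR-203a is a skin miRNA that represses p63 as keratinocytes leave the stem cell layer. miR-182, miR-183 and miR-96 are made from 1 primary transcript and are best known from sensory epithelia such as the retina and the hair cells of the inner ear. In serum these RNAs are carried from cells elsewhere, so fewer releasing cells and less release per cell cannot be told apart.

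The mature sequences show how alike 4 of the 5 are. They are given 5′ to 3′ from RefSeq (rat build GRCr8), with the seed in capitals, for the 4 that the sequence table holds, miR-200a-3p being named only.
miR-203a-3p: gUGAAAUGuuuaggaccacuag
miR-205: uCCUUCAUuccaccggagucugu
miR-182: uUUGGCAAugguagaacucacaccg
miR-183-5p: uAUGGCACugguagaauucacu
The next 3 are relatives whose values are set beside the 5 further on, miR-96-5p from the miR-183 transcript and the other 2 from the miR-200 family.
miR-96-5p: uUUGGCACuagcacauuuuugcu
miR-141-3p: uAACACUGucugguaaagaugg
miR-200c-3p: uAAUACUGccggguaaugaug
miR-182 and miR-183-5p had the same base at 18 of the 22 positions compared from the 5′ end, but at 5 of the 7 seed positions, the part that picks the targets. The seed of miR-96-5p differed at 1 position from each, with 6 of 7 bases shared. No other row of the matrix with a RefSeq sequence had the seed of miR-203a-3p, miR-205, miR-182 or miR-183-5p. miR-200a-3p, without a sequence here, was not part of that check.

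In GRCr8 the hairpins of miR-183, miR-96 and miR-182 lie within 3908 bases on the minus strand (chr4:59752246-59756153). miR-182 (chr4:59752249-59752273) lies downstream of miR-183-5p (chr4:59756106-59756127), and no host gene is annotated over it. The hairpin of miR-200a (chr5:171930717-171930805, minus strand) stands with miR-200b and miR-429 within 1908 bases, inside the annotated span of Ttll10 and of a long non-coding RNA. miR-203a-3p comes from chr6:137020756-137020777 on the plus strand. On the opposite strand the miRNA gene Mir3545 gives miR-203b, whose 5p arm is complementary to miR-203a-3p over 20 bases. miR-205 comes from chr13:107564588-107564610 on the minus strand, with no annotated host gene.

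Depth differed between the groups. The LPD libraries held 132609 to 305019 counts, the EPD libraries 1136537 to 1668807 and the Control libraries 1108167 to 1539557. From the number of miRNAs with no count, each sequenced molecule stood for an estimated 36.7, 49.1 and 12.3 reads in LPD 1, 2 and 3, for 1.65 to 2.74 in EPD and for 1.01 to 2.55 in Control. The estimate takes the mean profile of Control and EPD as the profile of every library, so miRNAs lost from LPD serum for any reason raise it there. It is an average and not a floor. The lowest count above 0 was 1 in every LPD library. The miRNAs with 1 to 9 counts numbered 3, 9 and 39 in LPD 1, 2 and 3, fewer counts than 1 estimated molecule would give. Control 2 stood apart, with 44.3% of its counts in the 3 hepatocyte miRNAs, against 2.48% and 5.16% in the other controls. Levels are given as CPM, counts per 1000000 counts of library size scaled by the TMM method, and tests are edgeR's quasi-likelihood tests over 294 miRNAs with Benjamini-Hochberg adjustment.

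All 5 miRNAs fell in LPD, against Control and against EPD, by 3.58-fold to 8.81-fold in the first comparison and by 3.30-fold to 9.74-fold in the second. Of the 294 miRNAs tested, 32.7% were called lower in each of these comparisons. None of the 5 passed the test in EPD against Control, where the share called over all miRNAs was 0%. Both LPD comparisons use the same 3 LPD libraries. Together the 5 took 0.366%, 0.310% and 0.530% of the counts in LPD 1, 2 and 3. In EPD 1, 2 and 3 they took 1.61%, 2.14% and 1.94%, and in Control 1, 2 and 3 they took 3.07%, 0.371% and 1.57%. The LPD shares thus lay under every EPD share, while Control 2 lay among the LPD shares. The Wilson 95% interval of Control 2 was 0.360% to 0.382%, and that of LPD 1 was 0.345% to 0.388%. These intervals take every read as a separate draw. Where several reads come from 1 molecule, as estimated for LPD 1, they are too narrow.

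**Figure D1:**
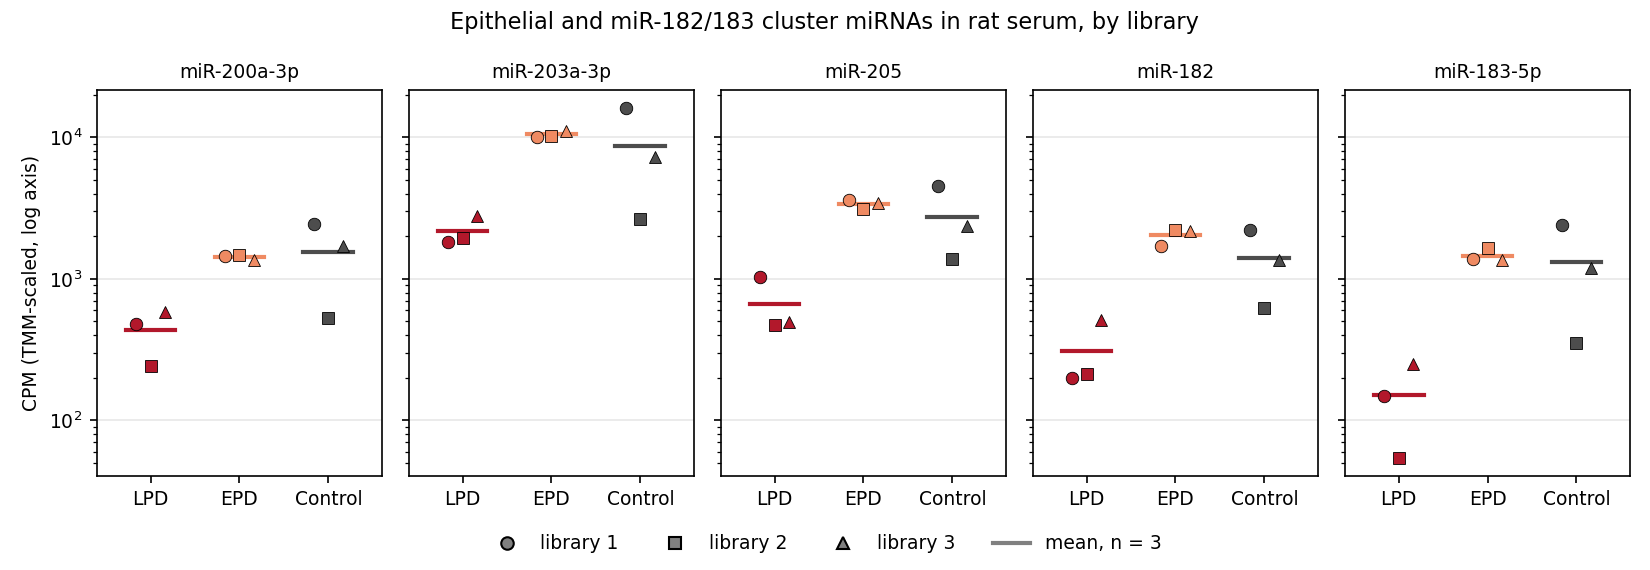
TMM-scaled CPM (log axis) of the 5 miRNAs in each of the 9 libraries, by group, with a bar at the group mean (n = 3). The LPD libraries lie under every EPD library in each panel, and Control 2 (square) is the lowest control in each, inside the LPD range for miR-200a-3p and miR-203a-3p.

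miR-200a-3p, the member of the Zeb-repressing family, had the smallest fitted change of the 5 in LPD. Against Control its difference from miR-203a-3p lay within their standard errors. Without Control 1 miR-203a-3p changed less (-1.21 against -1.40). miR-200a-3p had 484, 243 and 580 CPM in LPD 1, 2 and 3, against 1455, 1478 and 1371 CPM in EPD and 2434, 529 and 1712 CPM in Control 1, 2 and 3. LPD and EPD did not overlap, but Control 2 lay under LPD 3. The means were 436 ± 174 CPM in LPD, 1435 ± 56.5 CPM in EPD and 1558 ± 962 CPM in Control (SD, n = 3 each). The log2 fold change was -1.84 in LPD against Control (SE 0.56, 95% interval -3.10 to -0.58, edgeR adjusted p = 0.0278) and -1.72 in LPD against EPD (SE 0.56, -2.98 to -0.46, edgeR adjusted p = 0.0374). These calls were the least firm of the 5: of 18 processing alternatives, 10 kept the first and 7 the second, with adjusted p up to 0.214 and 0.198. Leaving out 1 library ended the call against Control for LPD 1 (0.0578), LPD 2 (0.0872), Control 1 (0.0979) or Control 3 (0.0655). Against EPD it ended for LPD 1 (0.0632), LPD 2 (0.0885), EPD 1 (0.0703), EPD 2 (0.0798), EPD 3 (0.0676) or Control 3 (0.0507).

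miR-203a-3p, the keratinocyte miRNA, was the most abundant of the 5 in each group and ranked 46 of 294 by mean level in LPD, 25 in EPD and 24 in Control. Its levels were 1835, 1948 and 2795 CPM in LPD 1, 2 and 3. The EPD libraries held 10142, 10300.5 and 11163 CPM and Control 1, 2 and 3 held 16139, 2649 and 7283 CPM. The 3 EPD libraries stood close together, far above LPD, whereas Control spread widely, with Control 2 inside the LPD range. In LPD the mean was 2193 ± 525 CPM, against 10535 ± 549 CPM in EPD and 8690 ± 6854 CPM in Control (SD, n = 3 each). miR-203a-3p fell by 2.27 on the log2 scale against EPD (SE 0.56, edgeR adjusted p = 0.0126), and this passed in all 18 alternatives. Against Control it fell by 1.99 (SE 0.55, interval -3.24 to -0.74, edgeR adjusted p = 0.0200). That call was lost without Control 1, where the change was -1.21 (adjusted p = 0.0641), without LPD 1 (0.0720) or LPD 2 (0.0688), in a fit of the 2 groups alone (0.0621) and with limma-voom (0.122).

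miR-205, of stratified epithelia, had 1030, 472 and 494 CPM in LPD 1, 2 and 3, against 3638, 3128 and 3432 CPM in EPD and 4502, 1392 and 2381 CPM in Control 1, 2 and 3. Every LPD library lay under every other library. The mean was 666 ± 316 CPM in LPD, against 3399 ± 256 CPM in EPD and 2758 ± 1589 CPM in Control (SD, n = 3 each). The log2 fold change was -2.05 against Control (SE 0.48, interval -3.14 to -0.95, edgeR adjusted p = 0.0102) and -2.35 against EPD (SE 0.49, interval -3.46 to -1.24, edgeR adjusted p = 0.00699). The call against EPD passed in 18 of 18 alternatives and the call against Control in 17, limma-voom being the exception (0.0792).

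miR-182 and miR-183-5p, from 1 primary transcript, had the largest fitted changes. Against Control the order of miR-182 and miR-205 lay within their standard errors. It turned on counts divided by the reads per molecule (-1.96 and -2.05) and without LPD 1 (-1.82 and -2.30). miR-182 had 199, 211 and 514 CPM in LPD 1, 2 and 3, against 1715, 2220 and 2164 CPM in EPD and 2214, 626 and 1359 CPM in Control 1, 2 and 3. Every LPD library lay under every EPD and Control library, with LPD 3 a little under Control 2. miR-182 fell by 2.19 against Control (SE 0.55, interval -3.44 to -0.95, edgeR adjusted p = 0.0126), to 308 ± 179 CPM in LPD, against 1400 ± 795 CPM in Control (SD, n = 3 each). Against EPD, with a mean of 2033 ± 277 CPM, it fell by 2.73 (SE 0.56, interval -4.00 to -1.46, edgeR adjusted p = 0.00660). The second call passed in all 18 alternatives and the first in 17, again all but limma-voom (0.0991).

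miR-183-5p had 149, 54.0 and 251 CPM in LPD 1, 2 and 3. In EPD it had 1379, 1650 and 1352 CPM, and in Control 1, 2 and 3 it had 2413, 350 and 1200 CPM. LPD lay under both other groups without overlap. The means were 151 ± 98.3 CPM in LPD, 1461 ± 165 CPM in EPD and 1321 ± 1037 CPM in Control (SD, n = 3 each). The fall was 8.81-fold against Control (log2 -3.14, SE 0.76, interval -4.85 to -1.42, edgeR adjusted p = 0.0104) and 9.74-fold against EPD (log2 -3.28, SE 0.76, interval -5.01 to -1.56, edgeR adjusted p = 0.00992). Each call passed in 17 of 18 alternatives, and limma-voom gave 0.112 and 0.0746. Without Control 1 the change against Control was -2.41 (adjusted p = 0.0340). By the estimate of reads per molecule, the size also rests on very few molecules. The raw counts were 45, 12 and 38 in LPD 1, 2 and 3, an estimated 1.23, 0.245 and 3.08 molecules. The estimates were 787 to 1301 in EPD and 2921, 107 and 1884 in Control 1, 2 and 3.

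**Figure D2:**
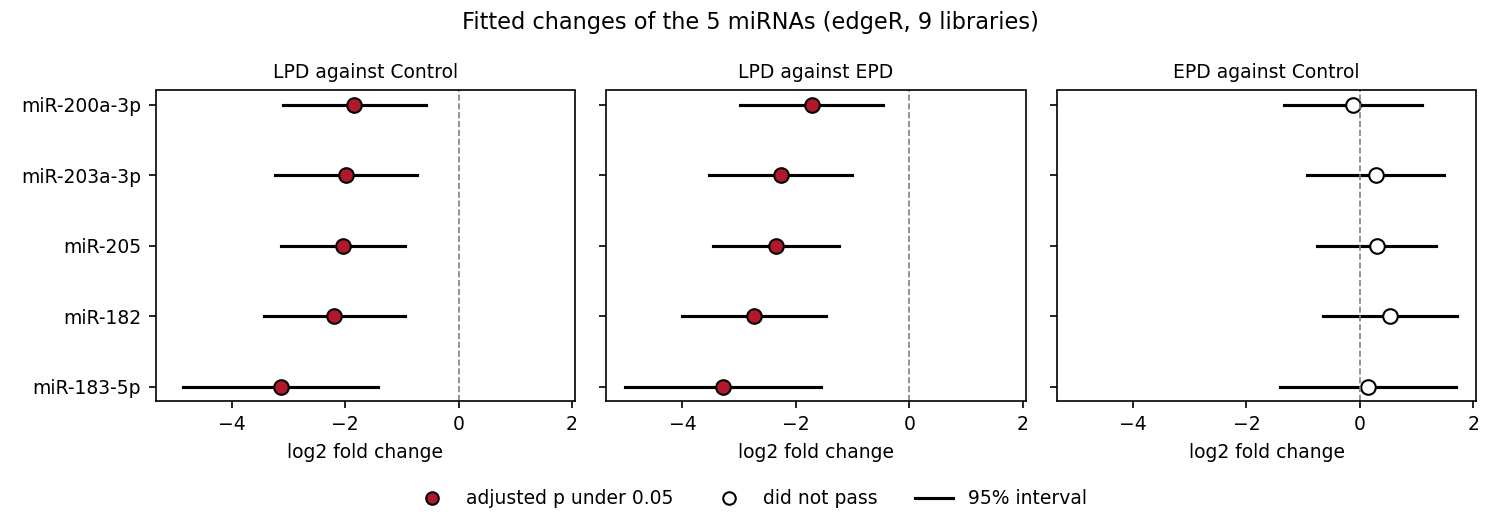
Fitted log2 fold change (x axis) of the 5 miRNAs in each comparison, with its 95% interval, filled where the adjusted p was under 0.05. All 5 points lie below 0 with intervals that leave out 0 for LPD against Control and LPD against EPD, and all 5 intervals include 0 for EPD against Control.

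Of the 5, 3 lay lower in LPD than in Control without overlap, where 41.8% of all miRNAs tested did. All 5 lay lower in LPD than in EPD without overlap, where 45.6% of all did. Among the 124 miRNAs with counts in all 9 libraries, as these 5 have, 21.8% were called lower against Control and 23.4% against EPD. The median log2 fold change of the 5 was -2.05 against Control and -2.35 against EPD. Over all miRNAs tested it was -1.04 and -0.92, and over the 124 it was -0.21 and -0.09. As the 5 were chosen with earlier results of these data known, these contrasts are no separate support for them as a set. limma-voom called 0 of the 5 against Control (3 at an unadjusted p under 0.05) and 3 of the 5 against EPD. Over all miRNAs it called 28.6% lower against Control and 27.9% lower against EPD. Its estimates for the 5 were changes of like size and larger standard errors.

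By the same estimate the other 4 miRNAs also rested on few molecules in LPD. In LPD 1, 2 and 3 the estimates were 15.1, 8.83 and 34.4 molecules for miR-203a-3p and 8.48, 2.14 and 6.08 for miR-205. For miR-200a-3p they were 3.98, 1.1 and 7.14, and for miR-182 they were 1.64, 0.958 and 6.33. Outside LPD the lowest estimate of any of the 5 was the 107 of miR-183-5p in Control 2. On counts divided by the reads per molecule, the log2 fold change against Control was -1.89 for miR-203a-3p (edgeR adjusted p = 0.0331), -2.05 for miR-205 (0.0206), -1.96 for miR-182 (0.0468) and -3.05 for miR-183-5p (0.0331). For miR-200a-3p it was -1.72 and did not pass (0.0852). The part of the low LPD depth in the falls was not tested.

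After 10 days of rotenone, in EPD against Control, 0 of the 5 passed edgeR's test and 0 of 5 had an unadjusted p under 0.05, where 3.74% of all miRNAs had one. DESeq2 and limma-voom also called 0 of the 5. The log2 fold changes were 0.54 for miR-182 (SE 0.52, interval -0.64 to 1.72), 0.30 for miR-205 (SE 0.46, -0.75 to 1.35) and 0.28 for miR-203a-3p (SE 0.53, -0.93 to 1.48). For miR-183-5p the change was 0.14 (SE 0.69, -1.41 to 1.70) and for miR-200a-3p it was -0.12 (SE 0.54, -1.33 to 1.09), and all 5 had an adjusted p of 0.995. Control spread widely: for each of the 5, Control 1 was the highest control and Control 2 the lowest. All 3 EPD libraries lay between them, except that EPD 2 lay above Control 1 for miR-182. Without Control 2 the changes were 0.31, 0.12, -0.019, -0.17 and -0.40 in the same order. In the order of mean levels EPD came first and Control next for 4 of the 5, with miR-200a-3p reversed, but these neighbours did not differ beyond their spread, and LPD came last for all 5.

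Leaving out Control 2, which was rich in hepatocyte miRNA, made the LPD falls against Control larger. They were then -2.13 for miR-200a-3p, -2.25 for miR-203a-3p, -2.21 for miR-205, -2.41 for miR-182 and -3.49 for miR-183-5p, each with an edgeR adjusted p of 0.00993. Leaving out Control 1 made these falls smaller. They were then -1.40 for miR-200a-3p, -1.21 for miR-203a-3p, -1.54 for miR-205, -1.73 for miR-182 and -2.41 for miR-183-5p. Of the 5, 3 were still called, while miR-200a-3p (edgeR adjusted p = 0.0979) and miR-203a-3p (0.0641) did not pass. Markers of other cells were read beside the 5. The 6 red cell markers took 36.9%, 38.5% and 27.0% of the counts in LPD 1, 2 and 3, 34.6%, 18.7% and 15.2% in EPD 1, 2 and 3 and 17.6%, 5.66% and 19.1% in Control 1, 2 and 3. In every library most of these counts were miR-16-5p, so the shares mainly follow that miRNA. It had 97780, 68928 and 32618 counts in LPD 1, 2 and 3, where miR-451-5p had 340, 168 and 232. One of the 6, miR-486, was called higher in LPD against Control (log2 2.18, SE 0.65, edgeR adjusted p = 0.0264, where 4.42% of all miRNAs were called higher), and 5 did not pass. Against EPD 0 of the 6 passed. The 5 platelet and myeloid markers summed to 78396 to 108523 CPM in LPD, 66261 to 83086 CPM in EPD and 44452 to 58563 CPM in Control, so the LPD sums lay above every Control sum. Of these, 2 were called higher in LPD against Control, miR-126a-5p (log2 1.52, SE 0.32, edgeR adjusted p = 0.00658) and miR-223-3p (log2 1.17, SE 0.39, edgeR adjusted p = 0.0418). miR-126a-5p was also called higher against EPD (log2 1.90, SE 0.33, edgeR adjusted p = 0.00576), where 4.08% of all miRNAs were. In both LPD comparisons 1 of 3 hepatocyte markers (miR-802-5p) and 1 of 4 muscle markers (miR-133b-3p) were called lower, each with no count in LPD. Over all miRNAs 32.7% were called lower in each of these comparisons. Of 3 neuronal markers the 1 tested did not pass. Of the counts outside the red cell and hepatocyte markers, the 5 miRNAs took 0.594%, 0.519% and 0.771% in LPD 1, 2 and 3. They took 2.50%, 2.68% and 2.41% in EPD 1, 2 and 3 and 3.84%, 0.741% and 2.07% in Control 1, 2 and 3. On this count too the LPD shares lay under every EPD share and Control 2 lay among the LPD shares. The part of the other cell types' miRNAs in the falls was not tested.

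The relatives of the 5 were read from a list of the other arms, cluster partners and family members, of which 12 are in the matrix and 10 could be tested. In LPD against Control 5 of the 10 were called lower, 0 higher and 5 did not pass, where 32.7% of all miRNAs tested were called lower. miR-200b-3p, transcribed beside miR-200a, fell to 88.5 ± 56.8 CPM in LPD, against 863 ± 539 CPM in Control (SD, n = 3 each, log2 -3.28, SE 0.63, edgeR adjusted p = 0.00522). Its change was -3.87 without LPD 2 and -2.68 without LPD 3. miR-200c-3p, of the chromosome 4 pair, fell to 159 ± 105 CPM in LPD, against 1113 ± 968 CPM in Control (SD, n = 3 each, log2 -2.81, SE 0.79, edgeR adjusted p = 0.0205). Its groups overlapped, with LPD 2 (274 CPM) above Control 2 (226 CPM). Its raw counts were 21, 61 and 20 in LPD 1, 2 and 3, where 1 molecule stood for an estimated 36.7, 49.1 and 12.3 reads. The call of miR-200c-3p against Control passed in 10 of 18 alternatives. It was lost with limma-voom (0.192), with the replicate number as a block (0.0669), on counts per molecule (0.0614), in a fit of the 2 groups alone (0.0892) and without Control 1 (-1.95, 0.0764), LPD 1 (-2.16, 0.0851), LPD 3 (-2.36, 0.0782) or EPD 1 (-2.55, 0.0520), and without LPD 2 the change was -3.44.

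The other 3 that were called, miR-200a-5p, miR-96-5p and miR-200c-5p, had no count in any LPD library and at most 85 counts in any EPD or Control library. With no count in LPD, no fold is given. Their levels in EPD and Control, 1.28 to 53.4 CPM, lie under the 81.2 to 221 CPM that 1 estimated molecule stands for in LPD. That is no floor, as miR-200b-3p had 46.2 CPM in LPD 3. On counts per molecule the calls of miR-200a-5p (0.432) and miR-96-5p (0.489) against Control were lost, and that of miR-96-5p also without LPD 1 (0.0578). The call of miR-200c-5p against Control passed in 2 of 15 alternatives, and leaving out any library but Control 2 ended it (adjusted p of 0.0563 to 0.124). miR-96-5p, the third product of the miR-183 transcript, was low throughout, with 9 to 57 counts in Control against 274 to 2963 counts of miR-183-5p.

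Of the relatives that did not pass, the abundant ones were miR-429 and miR-141-3p. miR-429 had 719, 963 and 508 CPM in LPD 1, 2 and 3, against 2233, 342 and 1221 CPM in Control 1, 2 and 3 (log2 -0.79, SE 0.58, edgeR adjusted p = 0.336). miR-141-3p had 619, 189 and 1055 CPM in LPD 1, 2 and 3, against 2383, 395 and 1724 CPM in Control 1, 2 and 3 (log2 -1.28, SE 0.71, edgeR adjusted p = 0.207). For miR-429 Control 2 lay under all 3 LPD libraries, and for miR-141-3p it lay among them. Against EPD the same 5 relatives were called lower, where 32.7% of all miRNAs were, with a log2 change of -3.4 for miR-200b-3p (edgeR adjusted p = 0.00576) and -3.36 for miR-200c-3p (0.0114), or -4.11 for each without LPD 2. miR-429 (-0.97, 0.237) and miR-141-3p (-1.64, 0.110) did not pass, although all 3 of their LPD libraries lay under all 3 EPD libraries. In EPD against Control 0 of the 10 passed.

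**Figure D3:**
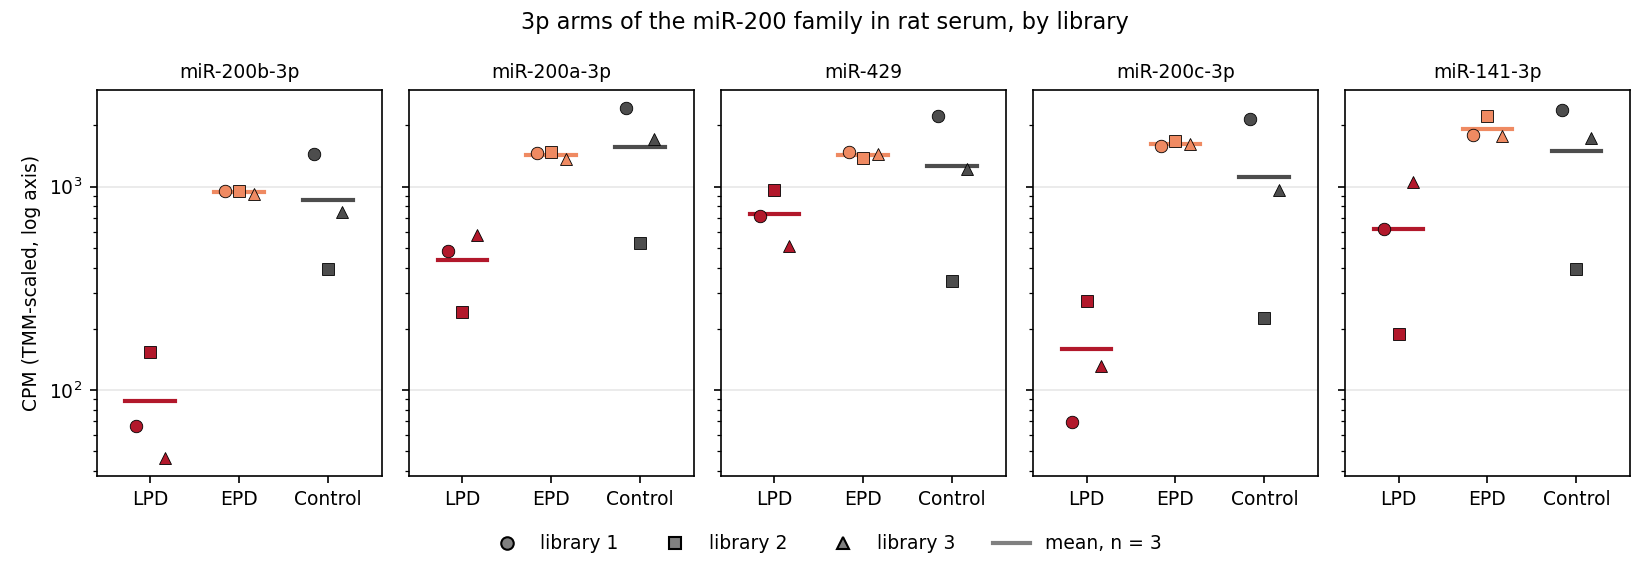
TMM-scaled CPM (log axis) of the 5 abundant miR-200 family arms in each library, by group, with a bar at the group mean (n = 3). miR-200b-3p is under every EPD and Control library in LPD, while miR-429 in LPD lies between 508 and 963 CPM, above Control 2 in all 3 libraries.

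Within the miR-182 and miR-183 pair, the log2 ratio of miR-183-5p to miR-182 was -0.41, -1.93 and -1.03 in LPD 1, 2 and 3. It was -0.31, -0.43 and -0.68 in EPD and 0.12, -0.84 and -0.18 in Control 1, 2 and 3. LPD 2 was the lowest, and the 3 ranges overlapped. The means were -1.12 ± 0.76 in LPD, -0.47 ± 0.19 in EPD and -0.30 ± 0.49 in Control (SD, n = 3 each).

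The 5 were also close to each other in their pattern over the 9 libraries. Likeness was measured as the root mean square difference of log2 CPM after each miRNA was centred on its own mean, among the 123 other miRNAs with counts in every library, so that a value of 0 means the same profile. The nearest to miR-200a-3p were miR-203a-3p (0.38), miR-141-3p (0.40) and miR-205 (0.49). The nearest to miR-203a-3p were miR-182 (0.38), miR-200a-3p (0.38) and miR-205 (0.49), and to miR-182 they were miR-203a-3p (0.38), miR-200a-3p (0.55) and miR-183-5p (0.56). The nearest to miR-205 were miR-203a-3p (0.49), miR-200a-3p (0.49) and miR-125b-5p (0.57). miR-183-5p stood farthest off, with miR-182 at 0.56, miR-203a-3p at 0.74 and miR-200a-3p at 0.77. Of these 15 nearest places, 13 were held by another of the 5. The measure is a description of these 9 libraries, in each of which all miRNAs share the depth and scaling. The 5 were chosen with earlier results of these data known, so their likeness is no separate support for them as a set.

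**Figure D4:**
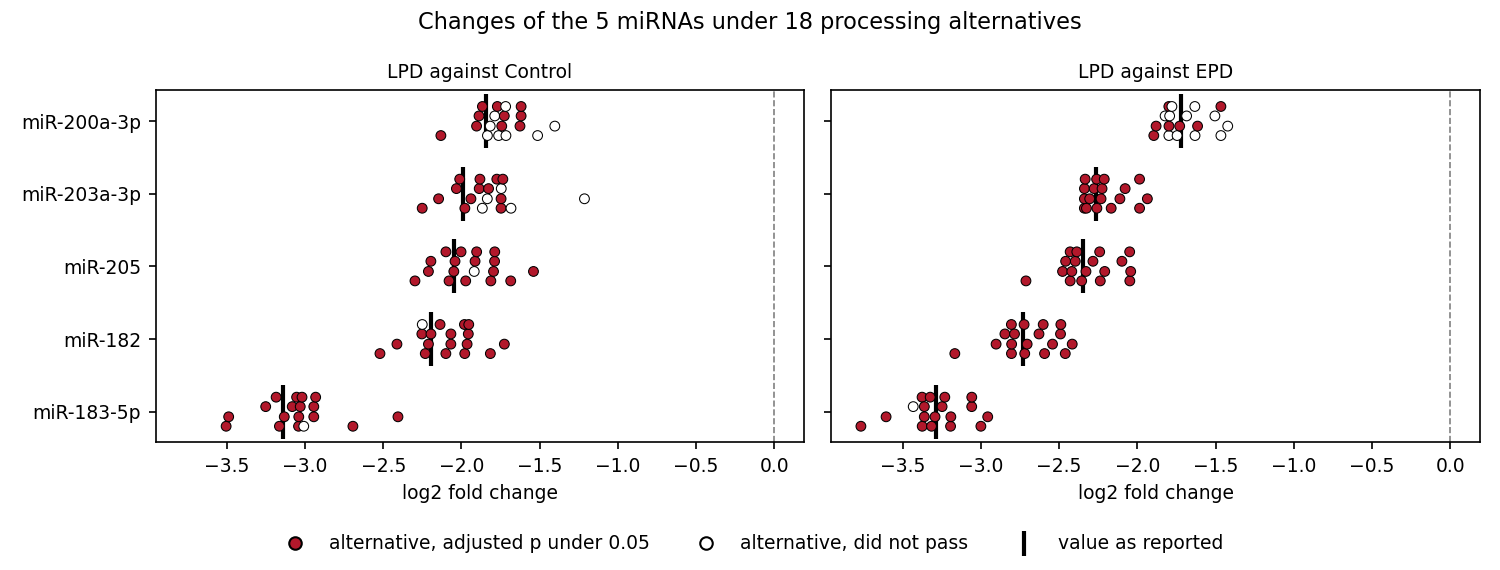
Log2 fold change of the 5 miRNAs as reported (bar) and under 18 processing alternatives (points, filled where adjusted p was under 0.05), for LPD against Control and LPD against EPD. Every point lies below 0, the open points gather on miR-200a-3p, and miR-203a-3p without Control 1 is the point at -1.21.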

How the data were processed

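The authors deposited whole-number read counts per mature miRNA, 1 column per library and unnormalized, from miRNeasy serum RNA and QIAseq miRNA libraries per the labels' protocols. The submitters' processing notes name mRatBN7.2 as the build, while sequences and positions here are from RefSeq GRCr8. The aligner, the counting tool and any use of molecular identifiers are unstated in the labels. Floors and Wilson intervals cover counting error only, with every read taken as a separate draw. Of 5103 values in the single-library files, 0 differed from the matrix. Groups and replicate numbers came from the sample titles. With no word on separate animals, a p-value here covers the spread among these libraries, which may be technical.

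miRNAs were filtered with filterByExpr (10 counts, 15 in total), which left 294, and scaled by TMM. All 9 libraries were fitted in 1 model without covariates, with edgeR 4.0.16 (robust quasi-likelihood), and called at an adjusted p under 0.05. The main fit modelled no pairing of libraries. The standard error is the log2 fold change divided by the square root of F. DESeq2 1.42.0, limma 3.58.1 and 16 other alternatives were run. Molecules per library were estimated from how many miRNAs had no count, given the mean profile of Control and EPD. Log2 ratios used a prior of 0.5 counts. The code was tested on simulated data. The named miRNAs are the 5, a list of relatives, a wider list drawn up for epithelia, marker lists and the 3 nearest in pattern. The members and lists were chosen with earlier results of these data known.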

Additional observations from a re-analysis of the deposited data

How the results depend on the processing

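The direction of the 5 miRNAs in both LPD comparisons held in all 18 alternatives. Of the 5, LPD against Control called 0 with limma-voom and 3 in a fit of the 2 groups alone, and 3 to 5 when 1 library was left out. LPD against EPD called 3 of the 5 with limma-voom and 4 to 5 when 1 library was left out. With the replicate block, 5 were called in each LPD comparison and 0 in EPD against Control, and 101, 101 and 0 of all miRNAs in LPD against Control, LPD against EPD and EPD against Control. Same-numbered libraries of different groups had r across miRNAs of -0.11 to 0.09, and differently numbered ones -0.10 to 0.12. With 3 libraries per group this cannot decide whether same-numbered libraries are paired. The deposited column headings of the single libraries give EPD and LPD the same T numbers. The labels do not say whether these are the same rats. Over all miRNAs, LPD against Control had 109 calls of 294 tested. It had 38 of 124 among miRNAs with counts in all 9 libraries, 31 of 263 on counts per molecule and 52 of 247 in the fit of 2 groups. Without 1 library it had 93 to 140 calls, with 307 to 327 tested. The 108 calls of 294 in LPD against EPD became 35 of 124 and 29 of 263 in the first 2 of these settings. In the fit of 2 groups there were 67, and without 1 library 90 to 134. limma-voom called 93 in LPD against Control and 91 in LPD against EPD. EPD against Control gave 1 with DESeq2, 1 among miRNAs with counts in all 9 libraries and 0 to 1 without 1 library, beside 0 with edgeR (11 at an unadjusted p under 0.05).

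The cause of these shifts was not tested. Changes near 0 turned. In EPD against Control, miR-200a-3p was 0.060 with limma-voom, 0.027 with no filter and 0.14 with the replicate block, and -0.40 to 0.40 without 1 library. Without 1 library the ranges were -0.019 to 1.12 for miR-203a-3p and -0.17 to 0.96 for miR-183-5p. For relatives they were -0.086 to 0.77 for miR-200b-3p, -0.14 to 0.91 for miR-429, -1.01 to 0.072 for miR-96-5p and -0.21 to 0.57 for miR-203b-3p. miR-200b-5p in LPD against Control was 0.12 with DESeq2, 0.15 with DESeq2 size factors, 0.18 on counts per molecule and -8.15 to 0.56 without 1 library, and in LPD against EPD it was -8.70 to 0.011 without 1 library. DESeq2 size factors moved the median log2 change of the 124 miRNAs with counts in all 9 libraries up by 0.23 in LPD against Control and by 0.27 in LPD against EPD, and library totals by 0.15 and 0.08. Depth limits LPD, where 3 counts stand for 9.94 to 19.8 CPM, against 1.88 to 2.31 CPM in EPD and 1.73 to 3.83 CPM in Control. These values take every read as a separate draw. By the estimate of reads per molecule, 1 molecule stands for 81.2 to 221 CPM in LPD.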

Other observations

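The log2 ratio of miR-200b-3p to miR-429, made from the same cluster as miR-200a, was looked at after their values were seen and is a description with no test. It was -3.41, -2.64 and -3.37 in LPD 1, 2 and 3, against -0.63, -0.54 and -0.64 in EPD and -0.62, 0.20 and -0.71 in Control 1, 2 and 3. The LPD ratios lay under all others. The raw counts behind them were 20, 34 and 7 for miR-200b-3p and 217, 214 and 77 for miR-429. These are an estimated 0.545, 0.693 and 0.568 molecules of miR-200b-3p, under 1 in every LPD library, and 5.92, 4.36 and 6.24 molecules of miR-429. miR-429 itself did not pass in either LPD comparison.

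Of a wider list drawn up for epithelia, 18 were in the matrix and 14 were tested. The list is broad, with miR-21-5p, miR-24-3p, miR-221-3p, miR-222-3p and miR-210-3p in it. It therefore does not stand for epithelial miRNAs alone. In LPD against Control 1 was called lower, 0 higher and 13 did not pass, where 32.7% of all miRNAs were called lower, with a median log2 change of -0.88 beside -1.04 over all miRNAs tested. The one called was miR-708-5p, which had no count in LPD and 46.7 ± 36.4 CPM in Control (SD, n = 3). miR-375-3p, of endocrine and gut epithelium, had 458 ± 165 CPM in LPD, against 242 ± 72.1 CPM in Control (SD, n = 3 each, log2 0.92, SE 0.47, edgeR adjusted p = 0.173).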
